A study of Mus musculus with 12 samples.

Results

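The cytosolic ribosomal proteins were followed through the epididymal white adipose tissue (eWAT) transcriptome of mice. Members were the genes whose symbol was Rpl or Rps with a number and at most 1 of the letters a, x or l, together with Rplp0, Rplp1, Rplp2 and Rpsa. The rule found 80 of the 23474 genes in the expression table. The annotation held 83 matching symbols, and the other 3 (Rpl13, Rpl24 and Rpl32l) were not analysed here. Of the 80 members, 78 were annotated as protein coding, while Rpl6l and Rps4l carried pseudogene types. After setting aside Rpl3l, Rpl10l, Rpl39l, Rpl6l and Rps4l, which are paralogs or pseudogenes with low or uneven levels, 75 main members were left. The libraries came from male C57BL/6J mice aged 17 weeks that had been fed 1 of 4 diets for 12 weeks. The ND group received a normal diet and the HFD group a high-fat diet. The GT group received the HFD with 0.25% (w/w) ethanol extract of green tea, and the TJ group the HFD with 3% (w/w) Taeeumjowuitang, a Korean herbal medicine of plant extracts. Each group had 3 libraries, each from 1 mouse, and whole tissue was used, so that adipocytes, immune cells and stroma all contributed. In such bulk samples, fewer cells of a type and less RNA per cell cannot be told apart.

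A ribosome of the cytosol is built from a small subunit, whose proteins have Rps symbols, and a large subunit, whose proteins have Rpl symbols. These proteins surround the ribosomal RNA and are made in near equal numbers, and their mRNAs are among the most abundant in most tissues. The 5′ end of these mRNAs is typically a run of pyrimidines, the terminal oligopyrimidine or TOP motif, through which mTORC1 and Larp1 control how strongly they are translated. A TOP motif acts mainly on translation and mRNA storage, which an mRNA measurement does not show.

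The start regions of 6 members on which the comparisons below turn are shown, because this is where a TOP motif would lie. Each is the 30 bases from 10 before to 20 after the RefSeq transcript start (build GRCm38.p6), read 5′ to 3′ on the strand of the gene, and capitals mark a run of 8 or more C or T.
Rplp2, chr7:141447641-141447670, plus strand: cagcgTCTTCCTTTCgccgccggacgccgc
Rpl35, chr2:39005112-39005141, minus strand: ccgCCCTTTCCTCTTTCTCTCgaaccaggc
Rpl15, chr14:18270967-18270996, minus strand: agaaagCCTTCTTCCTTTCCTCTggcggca
Rps6, chr4:86857348-86857377, minus strand: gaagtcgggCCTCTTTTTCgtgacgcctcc
Rps25, chr9:44407704-44407733, plus strand: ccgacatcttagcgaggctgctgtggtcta
Rps27l, chr9:66946076-66946105, plus strand: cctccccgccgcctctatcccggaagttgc
Rpl35 held the longest run of the 6, with 18 pyrimidines, and Rpl15 held 17, while the longest runs of Rps25 and Rps27l were 4 and 7 bases. RefSeq start windows were found for 58 of the 80 members, 70 windows in all. A run of at least 8 C or T stood in 23 of the 70 (32.9%), against 11.2% of 32851 windows of all genes. The letters CTTTC, which can lie inside such a run, stood on the sense strand of 15 (21.4%, against 3.74% of all windows). CCGGAAG, the core letters of ETS factor sites, stood on either strand from 250 before to 50 after the start in 26 windows (37.1%, against 8.86%). TATAAA, the letters of the TATA box, was found in 0 of the 70 windows within 50 bases before the start, and in 2.63% of all windows. These matches are descriptions of letters, and several members have more than 1 listed start.

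Expression was given by the authors as FPKM, the number of fragments scaled by transcript length and library size, so that levels are per length and can be compared between genes. The depth estimated from the steps between FPKM values was approximately 9.77 M fragments in ND replicate 1 and 14.1 M to 19.5 M fragments in the other 11 libraries, where M is the prefix mega. ND replicate 1 went against its tissue label. The 12 testis germ cell markers (such as Prm1, Tnp1 and Akap4) summed to 102589 FPKM in it and to 20.6 to 3448 FPKM in the other libraries, and the 9 epididymis markers summed to 16684 FPKM, against 1276 FPKM in HFD replicate 2 and at most 12.1 FPKM in the rest. Its 9 adipocyte markers summed to 4170 FPKM, against 17609 to 60277 FPKM in the others, and none of them was at 0 in any library. Germ cell markers were also above the remaining libraries in ND replicate 3 (3448 FPKM) and HFD replicate 1 (2296 FPKM). The comparison of HFD with ND is therefore given with and without ND replicate 1.

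The members together took up 3.40% to 10.0% of all FPKM in a library. In the ND group they made up 10.0%, 3.76% and 3.40% in replicates 1 to 3, and in the HFD group 5.25%, 4.74% and 4.99%. The shares were 4.84%, 4.15% and 3.63% in the GT group and 5.90%, 8.08% and 4.93% in the TJ group. TJ replicate 2 was the highest of the 11 libraries other than ND replicate 1, and TJ replicate 3 lay inside the range of the HFD group. The mean was 5.00% ± 0.258 (SD, n = 3) with HFD, 4.21% ± 0.605 (n = 3) with GT, 6.30% ± 1.62 (n = 3) with TJ and 5.73% ± 3.73 (n = 3) with ND, or 3.58% without ND replicate 1 (n = 2). The ratio of summed large subunit to summed small subunit FPKM was 1.25 to 1.26 in the 3 HFD libraries, 1.16 to 1.20 in GT, 1.20 to 1.22 in TJ and 1.18 to 1.20 in ND, so that HFD stood above the other 9 libraries by a small margin.

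**Figure D1:**
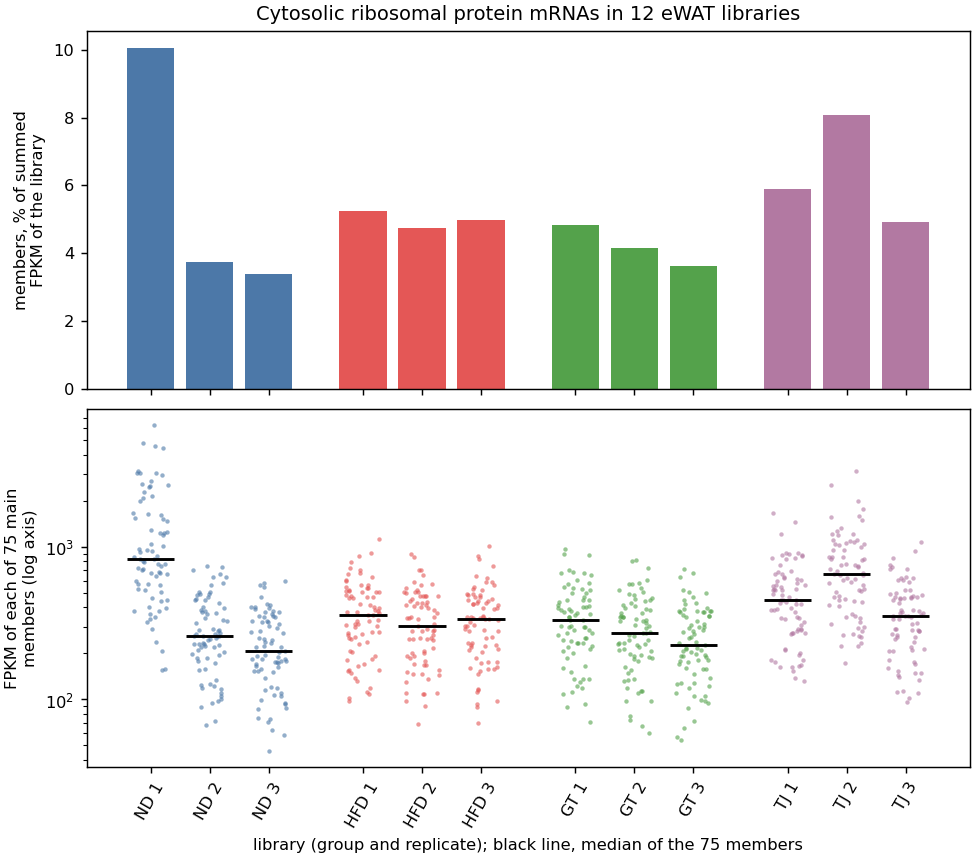
The upper panel plots the share of each library's summed FPKM taken by the 80 members, and the lower panel the FPKM of each of the 75 main members on a log axis, with a black line at their median. The bar of ND replicate 1 stands at 10.0% and that of TJ replicate 2 at 8.08%, and the medians range from 209 FPKM in ND replicate 3 to 836 FPKM in ND replicate 1.

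Although ribosomal proteins are needed in near equal numbers, their mRNA levels spread widely within each library. In HFD replicate 1 the main members ran from 98.2 FPKM (Rpl27a) to 1124 FPKM (Rplp1), with a median of 359 FPKM. Rplp1, a protein of the P-stalk, had the highest mean level in all 4 groups. Rpl10, which completes the large subunit late in its assembly, came next in the HFD and GT groups, and Rps12 in the TJ group. Rpl35, Rpl27a, Rps20, Rpl21 and Rps27l were the lowest 5 in the HFD group. The rank of Rplp2 moved the most of the P-stalk genes, from 63 of 75 in HFD and 55 in GT to 22 in TJ. Rps25 ranked 31 in HFD and 52 in GT.

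The comparison of TJ with HFD asks what adding TJ to the high-fat diet did to these mRNAs. The P-stalk is the arm of the large subunit that recruits the elongation factors, with Rplp0 as its base and Rplp1 and Rplp2 as its acidic tips. A gene is said to have risen or fallen where it differed by 1.5-fold or more and limma gave a p, adjusted over all genes tested, under 0.05. Such p-values measure the spread between these mice. Rplp2 was the only member that rose. Its level was 183, 148 and 159 FPKM in the HFD libraries and 609, 1100 and 281 FPKM in the TJ libraries. The groups did not overlap, and TJ replicate 2 was far above TJ replicate 3. On the log2(FPKM + 1) scale Rplp2 was higher by 1.81 ± 0.45 (SE, n = 3 and 3; limma adjusted p = 0.039). Without TJ replicate 2 the difference was 1.34 (adjusted p = 0.032), and over 16 alternative settings the adjusted p ranged from 0.024 to 0.32. The exact permutation test of its FPKM gave p = 0.1, the smallest that 3 against 3 libraries allow. Rplp1 measured 1124, 896 and 1006 FPKM with HFD and 1665, 3123 and 1076 FPKM with TJ, a log2 difference of 0.82 ± 0.37 that did not pass (limma adjusted p = 0.14). Rplp0, often used as a reference gene under the name 36B4, measured 464, 416 and 418 FPKM with HFD and 562, 759 and 465 FPKM with TJ (0.43 ± 0.20; limma adjusted p = 0.15). TJ replicate 2 was the highest library of the 6 for each of these 3 genes, and TJ replicate 3 was close to HFD for Rplp0 and Rplp1.

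**Figure D2:**
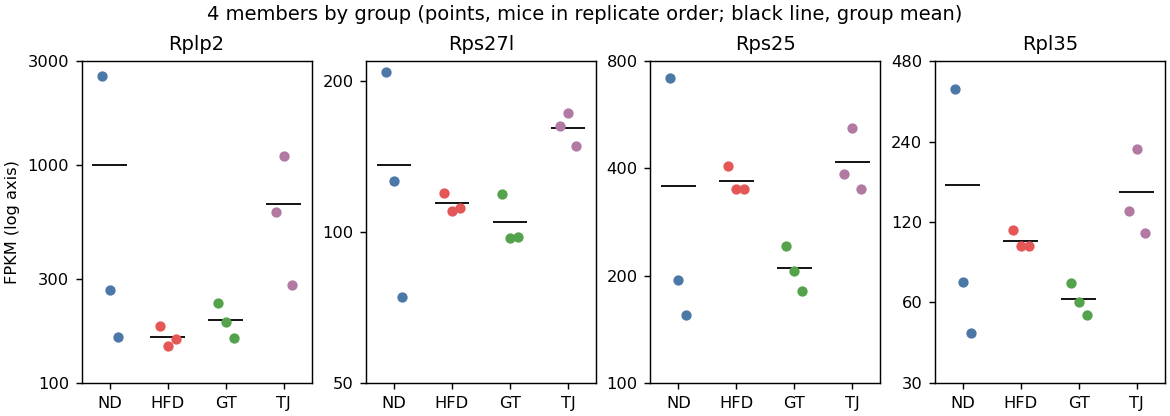
FPKM of Rplp2, Rps27l, Rps25 and Rpl35 on log axes, with 1 point per mouse and a black line at the mean of each group. Rplp2 and Rps27l were higher in all 3 TJ mice than in any HFD mouse, and Rps25 and Rpl35 were lower in all 3 GT mice than in any HFD mouse.

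Of the 78 members tested in this comparison, 1 rose and 0 fell (1.28% higher), where 7.41% of all 12807 genes tested rose. The 2 members not tested, Rpl3l and Rpl6l, had a mean under 1 FPKM. The log2 fold change was positive for 75 of the 78, whether or not they passed, and for 63 of 78 after quantile normalization. The median over the 78 was 0.53, against -0.14 over all genes tested (0.23 and 0.031 after quantile normalization), and 25 members had an unadjusted p under 0.05 (32.1%, against 41.4% of all genes). All 25 were higher with TJ, where 16.4% of all genes were higher and 24.9% lower at that p. All 3 TJ libraries were above all 3 HFD libraries for 31 of the 78 (39.7%), where 20.1% of all genes showed this. Rps27l, a paralog of Rps27 known as a target of p53, measured 120, 110 and 112 FPKM with HFD and 163, 173 and 149 FPKM with TJ. These groups did not overlap and the spread was small, with a log2 difference of 0.50 ± 0.13 (limma adjusted p = 0.041) that was under the 1.5-fold threshold.

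Among the small subunit proteins, Rps20 (102, 69.5 and 70.1 FPKM with HFD, 166, 282 and 102 FPKM with TJ) and Rps21 (537, 477 and 483 FPKM with HFD, 911, 1758 and 718 FPKM with TJ) had the largest positive differences after Rplp2, at 1.08 and 1.07, and neither passed (limma adjusted p = 0.071 and 0.054). Neither overlapped between the groups, Rps20 only narrowly, and TJ replicate 2 was the highest library for both. Among the large subunit proteins, Rpl37a was 232, 193 and 219 FPKM with HFD and 388, 657 and 290 FPKM with TJ, a difference of 0.97 (adjusted p = 0.055). Rpl41, one of the smallest proteins known, came next with 0.93 (adjusted p = 0.082). At the other end of the main members, Rpl3, at the peptidyl transferase centre, and Rps26, near the mRNA exit, differed by 0.022 and 0.034, and Rpl32 by -0.11, and none passed. The paralogs Rpl10l and Rpl39l were the lowest of the 78, at -1.05 and -0.95 (adjusted p = 0.34 for both). Rps6, the substrate of the S6 kinases downstream of mTORC1, measured 366, 335 and 351 FPKM with HFD and 397, 663 and 310 FPKM with TJ, and the groups overlapped (0.31 ± 0.27; adjusted p = 0.40). Rpl5 and Rpl11, which bind 5S ribosomal RNA and the p53 regulator Mdm2, differed by 0.10 and 0.72 and neither passed (adjusted p = 0.63 and 0.10). Rpl13a and Rps18, common reference genes, differed by 0.32 and 0.41 (adjusted p = 0.42 and 0.24). Rpsa, also known as a laminin receptor, differed by 0.38 and Rps27a, made as a fusion with ubiquitin, by 0.61 (adjusted p = 0.32 and 0.11).

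The size of the TJ difference rested on which TJ mouse was included. Without TJ replicate 2, the members' median was 0.24 and 4 of 78 rose, Rplp2, Rps21, Rpl37a and Rpl9 (5.13%, against 6.19% of all genes). Without TJ replicate 3, the median was 0.77 and 36 rose (46.2%, against 9.67%). When TJ replicate 1 or any 1 of the 3 HFD replicates was left out, limma called 0 of all genes tested. The loss of Rplp2 there was thus not particular to the members. In these fits 8 to 17 members had an unadjusted p under 0.05, all of them higher with TJ. They were 10.3% to 22.4% of the members, against 10.8% to 16.3% of all genes higher at that p. Every 1 of the 75 main members was higher in TJ replicate 2 than in TJ replicate 3, by a median of 2.04-fold, from 1.16-fold for Rps27l to 3.92-fold for Rplp2. TJ replicate 2 was also the TJ library with the lowest macrophage marker sum, 755 FPKM over 10 markers with none at 0, against 2094 and 2548 FPKM in TJ and 3775 to 5310 FPKM in HFD. Its adipocyte marker sum was the highest, 60277 FPKM, against 29960 and 36961 FPKM in TJ and 17609 to 19991 FPKM in HFD. By gene, 9 of the 10 macrophage markers were lower in every TJ library than in every HFD library, and Cd163 overlapped. Of the 9 adipocyte markers 8 were higher in every TJ library and Lep was lower in every one, and Fabp4 alone gave 21797 to 48299 FPKM of the sums in TJ and 12038 to 14495 FPKM in HFD. The T cell sum was 8.80 to 12.9 FPKM in TJ and 3.80 to 4.94 FPKM in HFD (5 of 7 markers higher in every TJ library), and the endothelial sum 227 to 373 FPKM and 192 to 221 FPKM (3 of 5 higher). The stromal progenitor sum was 812 to 846 FPKM in TJ and 1080 to 1137 FPKM in HFD (5 of 6 markers lower in every TJ library). The germ cell sum was 20.6 to 27.6 FPKM in TJ and 49.8 to 2296 FPKM in HFD. The sums over B cell, epididymis and skeletal muscle markers overlapped. Their part in the difference of the ribosomal proteins was not tested.

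TJ was also compared with GT, both of which are supplements to the same HFD. This comparison shares the TJ libraries with the one above and the GT libraries with the one that follows. In this comparison 76 members were tested, Rpl10l and Rpl39l being under the filter as well. All 76 had higher means on the log2 scale with TJ, by a median of 0.75, against -0.030 over all 12187 genes tested. None passed in limma at an adjusted p of 0.05 (lowest adjusted p = 0.10, where 0.139% of all genes rose), while 57 of the 76 had an unadjusted p under 0.05, against 24.6% of all genes. All 57 were higher with TJ, where 14.9% of all genes were at that p. Without GT replicate 2 this count was 26 of 76, against 8.15% of all genes higher, and without GT replicate 3 it was 19 of 76, against 9.70%. With all 12 libraries in the fit it was 6 of 76 (7.89%), against 4.20%. The TJ libraries lay above all GT libraries for 50 of the 76 (65.8%, against 19.5% of all genes). Rplp2 measured 233, 191 and 162 FPKM with GT, below all 3 TJ libraries, and differed by 1.57 ± 0.45 (limma adjusted p = 0.13). Next came Rps23, a protein of the decoding centre, with 334, 301 and 211 FPKM with GT and 661, 1052 and 459 FPKM with TJ (1.30). Rpl41 (1.28) and Rpl35 (1.26) followed, and the smallest difference was that of Rps3 (0.19). Without TJ replicate 2 the median was 0.48 and 75 of 76 were higher with TJ. Adipocyte marker sums were 29960 to 60277 FPKM in TJ and 24643 to 28645 FPKM in GT, with Adipoq and Fabp4 higher and Lep lower in every TJ library and the other 6 of the 9 markers overlapping. Germ cell sums were lower in TJ (20.6 to 27.6 FPKM, against 34.2 to 107 FPKM) and epididymis sums higher (3.78 to 12.1 FPKM, against 0.231 to 1.35 FPKM). The other 6 marker sums overlapped, with 755 to 2548 FPKM in TJ and 1399 to 3385 FPKM in GT for macrophages. Their part was not tested.

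GT was compared with HFD to ask what the green tea extract did on its own, with the same 3 HFD libraries as above. Rps25 and Rpl35 fell. Rps25 sits in the head of the small subunit and is needed for initiation at some internal ribosome entry sites. It measured 406, 349 and 349 FPKM with HFD and 243, 207 and 181 FPKM with GT, with no overlap and little spread in either group. The log2 difference was -0.81 ± 0.13 (SE, n = 3 and 3; limma adjusted p = 0.038). Rpl35, beside the exit tunnel of the large subunit, measured 112, 97.3 and 97.4 FPKM with HFD and 70.8, 60.2 and 54.1 FPKM with GT. The groups did not overlap, and the difference was -0.73 ± 0.13 (limma adjusted p = 0.038). For both, the exact permutation test gave p = 0.1, the smallest possible. In the annotation Rps25 overlaps Trappc4 and Ccdc84, and Rpl35 overlaps Arpc5l and Wdr38, on the opposite strand, and without strand in the library their reads cannot be told apart.

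These 2 were 2.56% of the 78 members tested, where 1.81% of 12766 genes fell. With GT, 66 of 78 members had negative log2 fold changes, with a median of -0.20, against -0.12 over all genes. Both values depended on GT replicate 3 and on the scaling. Without GT replicate 3, 51 were negative and the median was -0.099, against -0.10 over all genes, and with median-of-ratios scaling 51 were negative with -0.093, against -0.024. The GT libraries were below all HFD libraries for 29 members (37.2%, against 24.4% of all genes). Among main members Rps23 (-0.70), Rps26 (-0.69), Rpl39 (-0.62) and Rpl15 (-0.62) had the next largest differences and did not pass (limma adjusted p = 0.065, 0.067, 0.080 and 0.051). Rps6 measured 283, 244 and 213 FPKM with GT, below all HFD libraries, with a difference of -0.51 (adjusted p = 0.061). On the other side, Rps19, whose mutation causes Diamond-Blackfan anaemia in people, had the largest positive difference, 0.34 (adjusted p = 0.16), with 254, 188 and 212 FPKM in HFD and 303, 266 and 255 FPKM in GT. Over 16 alternative settings the adjusted p of Rps25 ranged from 0.019 to 1.00 and that of Rpl35 from 0.022 to 1.00, and each was called in 7. The calls ended with no filter, with no mean-variance trend, with all 12 libraries in the fit and with the replicate number as a block (adjusted p = 0.095 for both). Without GT replicate 1, 10 members fell, where 5.70% of all genes did. With GT replicate 2, GT replicate 3 or any 1 HFD replicate left out, limma called 0 members and only 3 to 27 of all genes lower. At an unadjusted p under 0.05, 14 to 20 members were lower (17.9% to 25.6%, against 12.1% to 18.2% of all genes) and 0 to 3 higher. GT replicate 1 was above GT replicate 3 for all 75 main members, by a median of 1.36-fold. Macrophage marker sums were 1399 to 3385 FPKM in GT, below the 3775 to 5310 FPKM of HFD, with 7 of 10 markers lower in every GT library and Cd163, Trem2 and Cd14 overlapping. Adipocyte marker sums were 24643 to 28645 FPKM, above the 17609 to 19991 FPKM of HFD, with 7 of 9 markers higher in every GT library and Lep and Pnpla2 overlapping. Stromal progenitor sums were 844 to 934 FPKM, below the 1080 to 1137 FPKM of HFD (Dcn, Pi16 and Pdgfra lower in every GT library), and B cell sums were 3.74 to 6.40 FPKM, below 7.44 to 8.89 FPKM. The other 5 marker sums overlapped. The part of these markers was not tested.

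HFD was compared with ND to ask what the high-fat diet did. With all 6 libraries none of the 79 members tested passed in limma, and 0 had an unadjusted p under 0.05 (11.6% of all genes did), where 1.77% of 14430 genes passed in either direction. With the replicate number as a block, limma called 0 of all genes (2 members, or 2.53%, had an unadjusted p under 0.05, against 15.5% of all genes). The median was -0.31 over the members and 0.068 over all genes (0.0091 and 0.060 after quantile normalization). That value rested on ND replicate 1, in which the main members were a median of 4.22 times the mean of the other ND libraries, from 0.777 times for Rpl5 to 19.1 times for Rps20. Rps20 measured 1513, 95.5 and 63.1 FPKM in the ND libraries and 102, 69.5 and 70.1 FPKM with HFD. ND replicate 1 was far above all other libraries, and ND replicates 2 and 3 were close to HFD. Without ND replicate 1, 70 of 78 members were higher with HFD, with a median of 0.40, against -0.024 over all genes. Of the 78, 12 rose and 0 fell (15.4%, against 11.0% of 13661 genes) when the mice were treated as unpaired. These calls ended in a paired fit, with the replicate number as a block, although the numbers were not shown to pair the mice. That fit was added after the data had been seen, and HFD replicate 1 had no partner in it. There limma called 0 of the 78 (17 at an unadjusted p under 0.05, or 21.8%, against 20.6% of all genes, and 16 of them higher with HFD), where 3.18% of all genes rose, and the median was 0.37 with 66 of 78 higher. The 12 in the unpaired fit were Rpl3, Rpl10a, Rpl12, Rpl15, Rpl27, Rpl34, Rpl36a, Rps2, Rps16, Rps23, Rps25 and Rps26. All HFD libraries were above both remaining ND libraries for 48 of the 78 (61.5%, against 28.0% of all genes). Rps25 had the largest positive difference, with 195 and 155 FPKM in ND and 349 to 406 FPKM in HFD, which was 1.08 ± 0.15 (limma adjusted p = 0.011, n = 3 and 2), and 1.00 ± 0.20 in the paired fit (limma adjusted p = 0.098). Rpl15, a core protein of the large subunit, measured 89.7 and 75.6 FPKM in these ND libraries and 156 to 169 FPKM with HFD (0.97 ± 0.12; limma adjusted p = 0.0078), and differed by 0.94 ± 0.19 in the paired fit (limma adjusted p = 0.096). Macrophage marker sums were 452 and 573 FPKM in these ND libraries, against 3775 to 5310 FPKM with HFD, and 9 of 10 markers were higher in every HFD library and Cd163 lower. Adipocyte marker sums were 32981 and 22454 FPKM in these ND libraries, against 17609 to 19991 FPKM with HFD, and 7 of 9 markers were lower in every HFD library, while Lep was higher and Fabp4 overlapped. T cell sums were 9.56 and 5.69 FPKM in ND and 3.80 to 4.94 FPKM with HFD. B cell sums (3.24 and 3.18 FPKM in ND, 7.44 to 8.89 FPKM with HFD) and skeletal muscle sums (1.68 and 1.91 FPKM, 9.77 to 11.5 FPKM) were higher with HFD, and the other 4 sums overlapped. The part of these markers was not tested.

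Since ribosomal protein mRNAs are short, fold changes were set against transcript length. The members had a median length of 704 nt among those tested in TJ against HFD, against 2070 nt over all genes (median over the coding transcripts of a gene, GENCODE annotation). With the longest coding transcript, the medians were 940 and 3026 nt. In TJ against HFD the log2 fold change of all 12725 genes with a length was lower in longer genes (Spearman rho of -0.36 with the longest and -0.27 with the median transcript). Across the 78 members rho was -0.17 and -0.27. These correlations run across genes that share the same 6 libraries and are descriptions. Among the other genes with a longest coding transcript of up to 1000 nt, the median log2 fold change was 0.42 (781 genes), close to the 0.53 of the members, and it was -0.16 in genes over 1000 nt. By the median transcript it was 0.12 in other genes of up to 1000 nt (2436 genes). The members' distance from other short genes thus depended on which length was used.

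Within the family, the 20 members of up to 550 nt had a median of 0.64, the 36 of over 550 and up to 900 nt 0.49 and the 22 of over 900 nt 0.46, against 0.17, 0.089 and -0.18 in the other genes of these lengths. After the trend with the longest coding transcript was removed over all genes, the members' median in TJ against HFD was 0.098, and with the median transcript it was 0.36. Rplp2 was 1.38 after the first correction (limma adjusted p = 0.036). Rps27l was then at -0.032. In TJ against GT, the median went from 0.75 to 0.25 and 0.50 under these corrections. In GT against HFD it went from -0.20 to -0.13 and -0.14, with little dependence on length over all genes (rho of -0.024 with the longest and -0.018 with the median transcript). In HFD against ND, where short genes were lower with HFD (rho of 0.27 with the longest transcript), the members' median went from -0.31 to 0.29 and -0.091. Without ND replicate 1 that trend was nearly absent (rho of 0.0081 with the longest transcript).

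**Figure D3:**
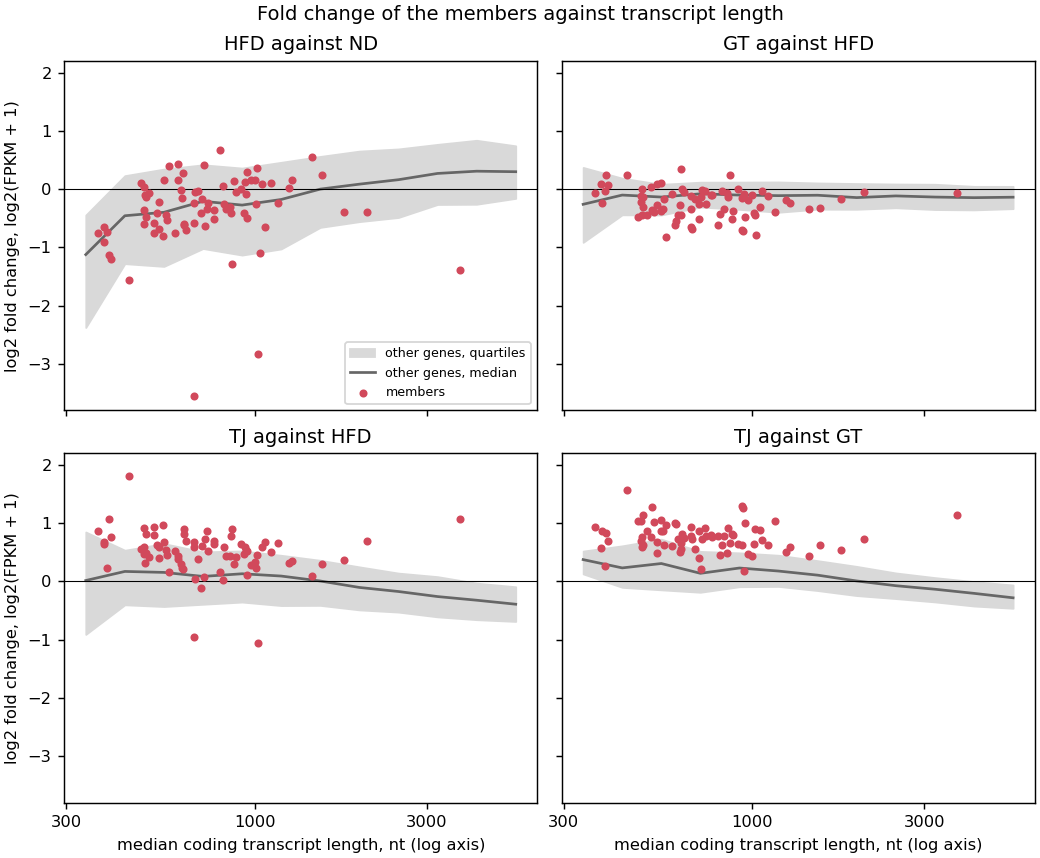
Log2 fold change on the log2(FPKM + 1) scale against the median coding transcript length (log axis) for the 4 comparisons, with members in red and the median and quartiles of all other genes in grey. In TJ against HFD the members' median was 0.53, where other genes of up to 1000 nt had 0.12.

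To see whether the mix of ribosomal proteins changed apart from their total, each member was expressed relative to the median of the 75 main members in its library, on the log2 scale. The 3 HFD libraries were then set against the 8 other libraries left without ND replicate 1. All 3 HFD libraries were above all 8 for 4 members (5.33%, against 4.82% of 13120 genes treated in the same way), namely Rpl15, Rps26, Rpl10a and Rps25. They were below all 8 for 13 members (17.3%, against 3.63%), namely Rplp2, Rps21, Rpl37a, Rps19, Rps24, Rpl7a, Rpl11, Rps12, Rps28, Rpl28, Rps15a, Rpl29 and Rpl9. The share above was near that of all genes. The gap of the 13 below ran from 0.0020 (Rpl9) to 0.45 (Rplp2) on the log2 scale. These genes were found by looking, so the counts are descriptions.

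Rplp2 showed the widest gap of these 17 members. Its relative level was -0.96, -1.04 and -1.08 in HFD, -0.52, -0.51 and -0.49 in GT and 0.45, 0.73 and -0.31 in TJ. In ND replicates 2 and 3 it was 0.041 and -0.36, and in replicate 1 it was 1.62. The HFD group was thus tight and lowest, and GT lay between HFD and the rest. Rps21 had a relative level of 0.52 to 0.64 in HFD and 1.02 to 1.41 in the 8 others. Rps25 went the other way, with 0.054 to 0.20 in HFD and -0.46 to 0 in the 8 others.

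When all genes were refitted with the members' median made equal in every library, 0 members passed in limma in TJ against HFD, GT against HFD and TJ against GT. Over all genes 3, 250 (1.96%) and 1 passed, so that in the first and the last hardly any gene was called. In TJ against GT 3 members had an unadjusted p under 0.05 (3.95%, against 51.3% of all genes). In TJ against HFD 9 members did (11.5%, against 35.0%), and Rplp2 differed by 1.29 ± 0.27 (limma adjusted p = 0.089). In GT against HFD 15 members did (19.2%, against 23.9%), with Rps21 at 0.53 (adjusted p = 0.052), Rplp2 at 0.53 (adjusted p = 0.055) and Rps25 at -0.53 (adjusted p = 0.057). In HFD against ND with all 6 libraries, 0 of 79 members and 0 of all genes passed. There 1 member had an unadjusted p under 0.05 (1.27%, against 5.78% of all genes). In HFD against ND without ND replicate 1, 3 of 78 passed, where 11.3% of all genes did. Rplp2 fell by 0.84 on the log2 scale with HFD (limma adjusted p = 0.021), Rps21 fell by 0.60 (adjusted p = 0.026) and Rps25 rose by 0.59 (adjusted p = 0.034). In the paired fit Rplp2 (-0.87) and Rps21 (-0.60) also passed (limma adjusted p = 0.019 and 0.031), together with Rps27 (-0.63; adjusted p = 0.045), where 6.75% of all genes did. Rps25 was at 0.58 there and did not pass (adjusted p = 0.13).

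**Figure D4:**
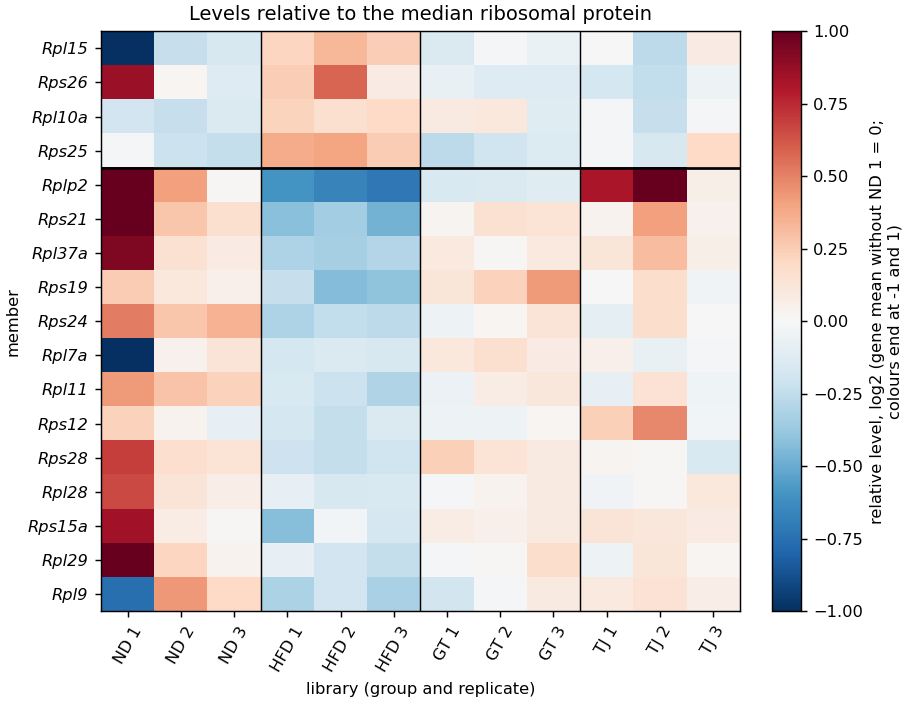
Relative log2 level of the 17 members whose HFD libraries lay above (upper 4 rows) or below (lower 13 rows) all 8 other libraries, each centred on its mean without ND replicate 1. The 3 HFD columns are the highest in the upper rows and the lowest in the lower rows when ND replicate 1 is set aside, and Rplp2 has the widest gap.

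Several matched genes are paralogs that stand in for a main copy in particular tissues. Rpl10l and Rpl39l replace Rpl10 and Rpl39 in male germ cells, and Rpl3l replaces Rpl3 in striated muscle. Rpl39l measured 425, 1.74 and 18.1 FPKM in the ND libraries and 7.42, 0.185 and 0.364 FPKM in the HFD libraries. In GT and TJ it was 0.0958 to 0.613 FPKM. Rpl10l measured 120, 0.836 and 13.5 FPKM in ND, 7.35 FPKM in HFD replicate 1 and at most 0.302 FPKM in all other HFD, GT and TJ libraries. The libraries with more than 5 FPKM of either gene were ND replicate 1, ND replicate 3 and HFD replicate 1, the same 3 that had the highest germ cell marker sums (102589, 3448 and 2296 FPKM). Rpl3l was 22.8 FPKM in ND replicate 1 and at most 1.48 FPKM elsewhere. Skeletal muscle markers summed to 12.5 FPKM in ND replicate 1 and to 1.68 to 11.5 FPKM elsewhere. Mylpf (5.55 FPKM), Mb (3.01 FPKM), Ckm (1.95 FPKM) and Myh1 (0.294 FPKM) were highest in ND replicate 1. Elsewhere they were at most 1.42, 0.688, 0.185 and 0.141 FPKM. Pvalb, Myh4 and Tnnt3 were highest in other libraries, with Pvalb at 1.53 FPKM in ND replicate 1 and up to 10.8 FPKM in HFD. Rpl39l, Rpl10l and Rpl3l did not pass in limma in HFD against ND. Their differences were -3.56, -2.84 and -1.10 (adjusted p = 0.49, 0.49 and 0.66). Without ND replicate 1, Rpl39l differed by -1.60 and Rpl10l by -1.32 (limma adjusted p = 0.44 and 0.55), and Rpl3l was under the filter. Rpl10, the main copy of Rpl10l, measured 676, 700 and 593 FPKM in the ND libraries, without the excess of ND replicate 1. Rps4l measured 284 FPKM in ND replicate 1 and 13.5 to 48.8 FPKM elsewhere. Its parent Rps4x measured 502 FPKM in ND replicate 1 and 349 to 762 FPKM elsewhere. Rpl6l was between 0 and 2.07 FPKM in the libraries other than ND replicate 1 and was not tested in these comparisons. Pseudogene copies of ribosomal proteins share sequence with their parents, and the authors divided reads that map to several places between them, so the levels of members with such copies are uncertain.

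**Figure D5:**
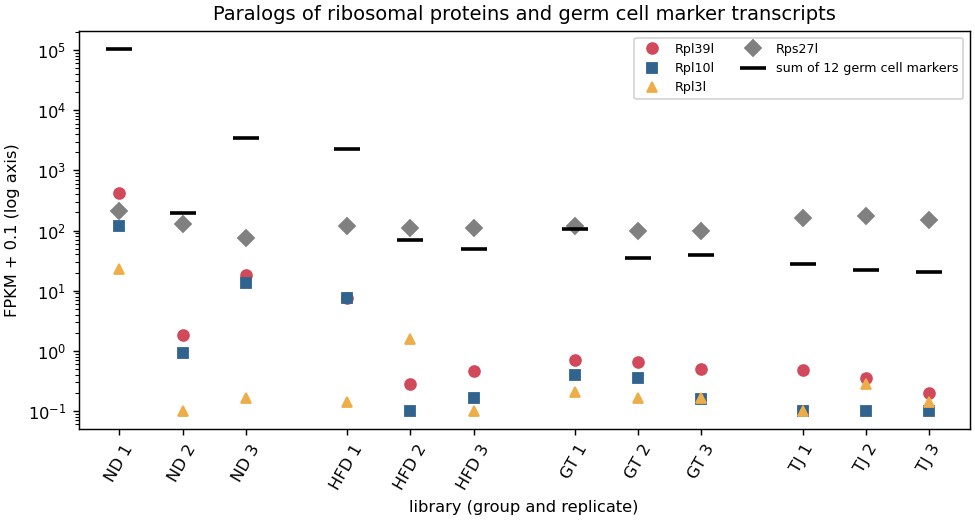
FPKM + 0.1 on a log axis for Rpl39l, Rpl10l, Rpl3l and Rps27l in each library, with black marks at the sum of 12 testis germ cell markers. Rpl39l and Rpl10l exceed 5 FPKM only in ND replicate 1, ND replicate 3 and HFD replicate 1, while Rps27l stays between 74.0 and 208 FPKM.

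Genes that work with the ribosomal proteins were counted from lists in TJ against HFD. Of 6 ribosomal proteins tested that the symbol rule misses, 5 had higher means with TJ, with a median of 0.62. In limma 0 passed, and 3 had an unadjusted p under 0.05, where 41.4% of all genes did. Fau, which encodes the small subunit protein eS30 fused to a ubiquitin-like protein, differed by 0.91 (limma adjusted p = 0.067). Rack1, the scaffold on the head of the small subunit, was at -0.0088. Of 5 elongation factor genes tested, Eef1b2, which recharges eEF1A with GTP, rose by 0.78 (limma adjusted p = 0.0498), and the median was 0.13. Without TJ replicate 2 none of the 5 passed in limma (1 at an unadjusted p under 0.05, where 36.7% of all genes were). Of 75 mitochondrial ribosomal proteins, made for the separate ribosomes of mitochondria, 15 rose and 0 fell, with a median of 0.48 (0.30 and 12 without TJ replicate 2). Of 36 proteasome subunits, another family of abundant complexes, 3 rose and 1 fell, with a median of 0.19.

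Over all genes tested in TJ against HFD, 7.41% rose and 11.1% fell. Of 35 ribosome assembly factors tested, 1 rose (Sbds, which releases the anti-association factor eIF6, 0.72) and 2 fell (the helicase Ddx21, -1.01, and Tsr1, -0.83), with a median of -0.16. Of 19 genes of mTORC1 signalling and TOP mRNA control, 2 rose and 3 fell. Eif4ebp1 and Eif4ebp3, which restrain cap-dependent initiation, rose by 1.36 and 3.01 (limma adjusted p = 0.032 for both). Rptor, the mTORC1 scaffold, fell by 0.59 on the log2 scale, Tsc1, a brake on mTORC1, fell by 0.81 and Eif4a1, the initiation helicase, fell by 0.73. Larp1, which binds TOP mRNAs, was at -0.45 (adjusted p = 0.085) and Mtor at -0.28 (adjusted p = 0.25). Of 12 eIF3 subunits 0 passed (2 at an unadjusted p under 0.05, where 41.4% of all genes were), with a median of 0.18. In GT against HFD, limma called 0 of the elongation factor, assembly factor, mTORC1 and eIF3 genes. In either direction 0, 8, 9 and 4 of them had an unadjusted p under 0.05, where 29.3% of all 12766 genes did. Of 75 mitochondrial ribosomal proteins tested there 2 fell, where 1.81% of all genes did.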

How the data were processed

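RNA-seq of eWAT from 12 mice (3 libraries for each of ND, HFD, GT and TJ) was analysed from the deposited FPKM table. The submitters' processing notes name CASAVA 1.8.2, STAR 2.4.0 and Cufflinks 2.1.1. Per the methods, the authors filtered low-quality reads and computed FPKM with Cufflinks, masking noncoding RNA, sharing out reads with several matches and correcting for fragment bias. A human genome is named there, although the identifiers in the table are those of mouse genes. The methods describe the HFD and TJ groups, and the ND and GT groups were taken from the labels. The library kit, per the labels, does not mark strand. Of the 23474 identifiers, GENCODE mouse release M21 (GRCm38) named 22671 and left 803 without a symbol, and 0 columns belonged to other series. The table holds no counts, so depth was estimated from steps between FPKM values and no counting interval was computed.

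Groups were compared with limma 3.58.1 (R 4.3.3; lmFit, eBayes with trend) on log2(FPKM + 1), using only the 6 libraries compared, over all genes that averaged 1 FPKM or more. A gene rose or fell at a Benjamini-Hochberg adjusted p under 0.05 over all genes and a fold change of at least 1.5. A log2 fold change on this scale understates the change of low genes. On data simulated for TJ against HFD (12568 genes), the fit called 92 of 100 genes changed 4-fold and 52 of 100 changed 2-fold, with 11 false calls. The changed genes were drawn from the more highly expressed ones, and each gene had its own independent normal noise. Shifts shared by many genes of a library were not simulated, so these rates need not hold for the real libraries. Exact permutation tests used scipy 1.17.1. Length trends were removed with loess (span 0.5), and figures used matplotlib 3.10.9. The members and lists were chosen with earlier results of these data known. Named genes were the 5 largest and 5 smallest differences in each comparison, the P-stalk, the paralogs with their main copies, members with other roles or used as reference genes, and members under the filter. The relative levels, the equalised median, the median transcript length and the replicate block without ND replicate 1 were added after the data had been seen. Same-numbered libraries correlated in their deviations from the group means by 0.55, 0.34 and 0.12 for HFD and ND. Each was over 0.1, and these numbers were taken to pair the libraries, although no source says what a number shares. HFD replicate 3 correlated with ND replicate 2 by 0.63, above all 3 of these values, so the pairing was not shown. In the other comparisons at least 1 same-numbered correlation was under 0.1. Of the members, 19 overlap another gene of the table, 2 of them (Rpl13a and Rpl19) on the same strand. Alternatives were pseudocount, filter, scaling, the libraries in the fit, the replicate block, the trend and leaving out each library.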

Additional observations from a re-analysis of the deposited data

How the results depend on the processing

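With 3 mice a group, FPKM without counts and 1 library that went against its tissue label, small differences of single members could not be resolved.

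For TJ against HFD, limma called 2366 genes in the reported fit, 382 with no filter, 1 with all 12 libraries, 3 with the equalised median and 0 to 3412 when 1 library was left out. In GT against HFD it called 464, and 5 with no filter, 1 with all 12 libraries, 5 with the replicate block, 67 with no mean-variance trend, 250 with the equalised median and 4 to 1107 when 1 library was left out. In TJ against HFD the number of members called was 1 in the reported fit, 0 with no filter, with all 12 libraries in the fit and with the members' median equalised, 2 with a pseudocount of 0.1 and with median-of-ratios scaling, 3 with the length trend removed, 5 after quantile normalization, 6 with a mean of at least 5 FPKM, and from 0 to 36 when 1 library was left out. In GT against HFD it was 2, and 0 with no filter, all 12 libraries, the replicate block, no mean-variance trend or the equalised median, 4 with a mean of at least 5 FPKM and with the length trend removed, and from 0 to 10 when 1 library was left out. In HFD against ND it was 0 with the equalised median and all 6 libraries, where 0 of all genes were called. It ranged from 0 to 12 when 1 library was left out. With the equalised median and without ND replicate 1 it was 3, with the replicate block as well as without it. In TJ against GT it ranged from 0 to 1 (Rplp2 without TJ replicate 3). The replicate block left 0 called in HFD against ND, where the paired fit called 0 of all genes and gave 2 members an unadjusted p under 0.05, and also when ND replicate 1 was left out of it (median of 0.37). It left 1 in TJ against HFD and 0 in TJ against GT. Rps25 and Rpl35 were lost in GT against HFD under the block (limma adjusted p = 0.095 for both). The numbers were not shown to pair the mice there or in HFD against ND.

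The members' median in HFD against ND was 0.0091 after quantile normalization, 0.29 with the length trend removed and -0.72 to 0.40 when 1 library was left out. In TJ against HFD it was 0.098 with the length trend removed and 0.24 to 0.77 when 1 library was left out, and in TJ against GT 0.25 and 0.48 to 0.99. With the median coding length, the Spearman correlation of the members' fold change with length was -0.17 in GT against HFD (0.059 with the longest), 0.30 in HFD against ND (0.17) and -0.27 in TJ against HFD (-0.17).

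Quantile normalization moved the median of all genes from -0.14 to 0.031 in TJ against HFD and from -0.12 to 0.026 in GT against HFD, and median-of-ratios scaling from 0.068 to -0.12 in HFD against ND. Several members changed sign. In TJ against HFD, after quantile normalization Rpl10 was -0.29, Rpl13a -0.049, Rpl3 -0.26, Rpl5 -0.16, Rps26 -0.27, Rps4x -0.033 and Rps6 -0.013. With the length trend removed Rpl10 was -0.39, Rpl13a -0.072, Rpl3 -0.25, Rpl39 -0.14, Rps18 -0.12, Rps26 -0.48, Rps27l -0.032, Rps4x -0.15 and Rps6 -0.16, and with the median coding length Rpl10 was -0.094, Rpl3 -0.14 and Rps26 -0.15. Rpl32 was 0.017 with median-of-ratios scaling, -0.43 after quantile normalization (limma adjusted p = 0.058) and -0.56 with the trend over the longest transcript removed (limma adjusted p = 0.030, under the 1.5-fold needed for a call). Leaving out 1 library gave Rpl10 -0.019 to 0.16, Rpl13a -0.0066 to 0.61, Rpl3 -0.19 to 0.20, Rpl5 -0.015 to 0.21, Rps26 -0.17 to 0.19 and Rpl32 -0.36 to 0.086. In TJ against GT, Rpl10 was -0.15, Rps29 -0.10 and Rps3 -0.093 after quantile normalization, Rpl10 -0.34, Rps29 -0.40 and Rpl32 -0.12 with the length trend removed, Rpl10 -0.039, Rps29 -0.045 and Rps3 -0.040 with the median coding length, and Rps29 -0.11 to 0.56 when 1 library was left out. Leaving out 1 library also gave Rpl37a -0.052 to 0.23 in GT against HFD, and in HFD against ND Rpl39 -0.036 to 0.96, Rps20 -2.25 to 0.027, Rps25 -0.028 to 1.08 and Rps4l -2.07 to 0.060. The causes were not tested.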
